A study of Mus musculus with 11 samples.

Results

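The 10 genes described here encode enzymes and transporters that make and process the acylceramides of the epidermal permeability barrier. They were listed by gene symbol for their role in the pathway, with earlier results of these data known, and were found among the 55536 genes of the count files by their Ensembl identifiers: Slc27a4, Elovl4, Cyp4f39, Cers3, Pnpla1, Ugcg, Abca12, Alox12b, Aloxe3 and Sdr9c7. RNA was sequenced from epidermal cells of the dorsal skin of male CD4Cre R26-tdT mice on a C57Bl6/N background, sorted into 4 groups and measured in 11 libraries, each from the pooled cells of 2 mice that were 29 weeks old in replicate 1 and 32 weeks old in replicates 2 and 3. In these mice Cre is driven by Cd4 sequences and switches on the fluorescent protein tdT in cells that express it and in their progeny, so that tdT+ cells are descendants of Cd4-expressing cells and tdTneg cells are not labelled. The groups were tdT+CD49f+CD34+ (n = 3), tdTnegCD49f+CD34+ (n = 3), tdT+CD49f+CD34+SCA-1+ (n = 3) and tdTnegCD49f+CD34+SCA-1+ (n = 2). The CD49f+CD34+ cells were sorted as negative for SCA-1 and are called bulge cells in the study. All 4 groups carried both alleles, and no library came from 1 animal alone.

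The permeability barrier is built by keratinocytes as they leave the basal layer of the epidermis. Very long fatty acids are elongated, hydroxylated at their far end and joined to a sphingoid base, the ceramide is esterified with linoleic acid and glucosylated, and the product is carried in lamellar granules to the outermost living layer. There the linoleate is oxidised by lipoxygenases, and the ceramides are bound to the cornified envelope. Inherited loss of most of these genes causes ichthyosis in humans.

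Library totals ran from 17409131 to 46542177 counts on Ensembl genes, and all 10 genes passed the filter on low counts, as did 20307 genes in all. By the markers of the cell types, Ly6a, which encodes SCA-1, was higher in CD49f+CD34+SCA-1+ libraries, and all 8 bulge markers were lower there. Higher there were 3 of 5 interfollicular basal, 4 of 8 spinous, 3 of 7 granular, 1 of 5 upper follicle, 2 of 4 inner root sheath and 8 of 8 leukocyte markers, while 3 of 5 melanocyte and 1 of 7 sebaceous gland markers were lower and no fibroblast (of 6), endothelial (of 6) or Y-linked marker (of 4) was called. The interfollicular basal list includes Ly6a, the gene of the sort marker, so its rise is not a separate result on basal cells. The hepatocyte gene Alb reached 4393 to 9564 normalised CPM, counts scaled to a common library size, in 3 libraries, tdT+CD49f+CD34+ replicates 1 and 2 and tdTnegCD49f+CD34+ replicate 2, against 3.04 to 37.3 in the other 8 libraries. The library labelled tdT+CD49f+CD34+ replicate 2 also had only 2.05 CPM of the 1 row outside the Ensembl genes, which stood at 133 to 307 CPM in the other 5 tdT+ libraries and at 2.54 to 4.89 CPM in the 5 tdTneg libraries, and the lowest sum of Y-linked markers, 91.1 CPM. In that row it thus stood with the tdTneg libraries, against its label, and whether its cells were tdT+ was not tested.

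In CD49f+CD34+SCA-1+ cells, 5 of the 10 genes were higher than in CD49f+CD34+ cells and none was lower, when the tdT+ and tdTneg differences were averaged. They were Abca12, the lamellar granule transporter, Cyp4f39, the fatty acid omega-hydroxylase, Cers3 and Pnpla1, which make the ceramide and its linoleate ester, and Ugcg, which adds the glucose. The folds ran from 2.37 for Ugcg to 3.91 for Abca12. A gene was called where the Benjamini-Hochberg adjusted p of edgeR's quasi-likelihood test over 20307 genes was under 0.05 and the log2 fold change over 1 in size. By the same rule 4.77% of all genes tested were called higher and 6.79% lower. The median log2 fold change of the 10 genes was 1.35, beside -0.09 for all genes tested. The 5 other genes were Slc27a4, Elovl4, Alox12b, Aloxe3 and Sdr9c7, whose estimates ran from -0.68 to 1.75. In bulk samples, a larger share of cells that express a gene cannot be told apart from more RNA of that gene per cell.

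**Figure D1:**
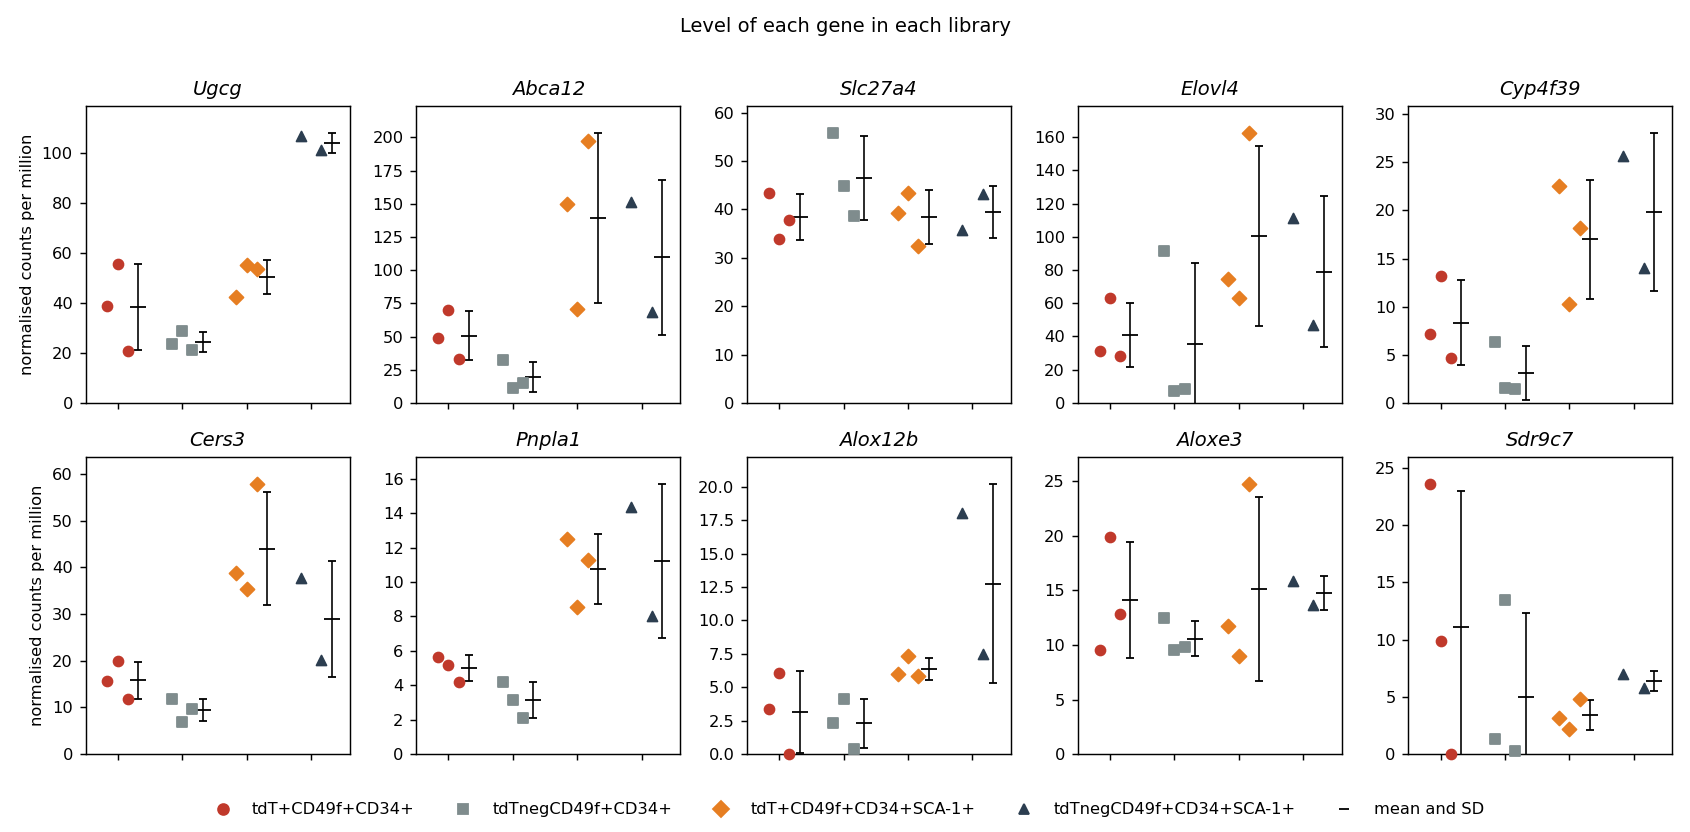
Normalised CPM (vertical axes, starting at 0) of the 10 genes in each of the 11 libraries, 1 panel per gene, with symbols for the 4 sorted groups and a horizontal mark with bars for the mean and SD (n = 3, 3, 3 and 2; bars that would pass below 0 end at the axis). Cers3 and Pnpla1 are higher in all 5 SCA-1+ libraries than in all 6 others, Ugcg is highest in the 2 tdTnegCD49f+CD34+SCA-1+ libraries, Slc27a4 lies between 32.4 and 55.8 throughout, and the 3 highest Sdr9c7 values are in CD49f+CD34+ libraries.

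Abca12, Cers3, Cyp4f39 and Pnpla1, were 4 of the 5 called genes. Their pairwise Pearson correlations of log2 CPM over the 11 libraries, which share their depth and the contrast between populations, ran from 0.88 to 0.96. Those of Ugcg, the other called gene, with the 4 ran from 0.67 to 0.78, and those of Elovl4, which was not called, from 0.81 to 0.91. They are given as a description. The sequences upstream of the starts of Abca12, Cers3, Cyp4f39 and Pnpla1 are printed so that their promoters can be compared. RefSeq promoter entries on GRCm38.p6 were found for 9 of the 10 genes. Each line gives the 250 bases before the transcription start, 5′ to 3′ on the strand of the gene, and capitals mark the letters CACCC or its reverse complement GGGTG, the core bound by Krüppel-like factors.
Abca12: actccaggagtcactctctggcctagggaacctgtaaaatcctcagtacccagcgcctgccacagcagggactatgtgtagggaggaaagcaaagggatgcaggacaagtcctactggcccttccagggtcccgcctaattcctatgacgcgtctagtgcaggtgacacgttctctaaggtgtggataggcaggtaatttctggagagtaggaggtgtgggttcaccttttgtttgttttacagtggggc
Cers3: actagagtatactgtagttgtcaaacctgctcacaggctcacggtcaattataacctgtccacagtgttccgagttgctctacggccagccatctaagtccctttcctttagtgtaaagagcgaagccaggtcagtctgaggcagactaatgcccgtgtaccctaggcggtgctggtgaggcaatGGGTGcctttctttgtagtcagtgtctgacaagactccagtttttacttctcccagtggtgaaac
Cyp4f39: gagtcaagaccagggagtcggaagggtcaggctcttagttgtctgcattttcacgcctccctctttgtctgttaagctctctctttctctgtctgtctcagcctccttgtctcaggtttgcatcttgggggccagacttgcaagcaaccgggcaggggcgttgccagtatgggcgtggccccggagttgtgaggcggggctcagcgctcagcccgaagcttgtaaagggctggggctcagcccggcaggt
Pnpla1: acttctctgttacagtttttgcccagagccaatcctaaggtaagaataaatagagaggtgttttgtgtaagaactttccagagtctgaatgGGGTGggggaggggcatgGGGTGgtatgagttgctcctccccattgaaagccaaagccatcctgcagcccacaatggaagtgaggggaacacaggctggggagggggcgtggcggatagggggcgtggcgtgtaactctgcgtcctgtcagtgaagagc
These windows lie at chr1:71414911-71415160 on the minus strand for Abca12, and on the plus strand at chr7:66743254-66743503 for Cers3, chr17:32452473-32452722 for Cyp4f39 and chr17:28858161-28858410 for Pnpla1. Their GC content was 53.2%, 49.6%, 59.6% and 54.0%, and the median over all 32851 mouse entries was 52.4%. The letters TGANTCA of AP-1 and ACCNGTT of Grainyhead-like factors, each searched on both strands, were in none of the 9 windows, and were in 6.75% and 6.97% of all windows. CACCC was in 5 of the 9, those of Ugcg, Cers3, Sdr9c7, Alox12b and Pnpla1, and in 52.0% of all windows. None of the motifs was in the windows of Abca12 and Cyp4f39. The letters TATAAA of a TATA box were in the window of Sdr9c7 alone among the 9, 42 bases before its start, and in 12.4% of all windows. In that window the CACCC match lay 22 bases before the start and did not overlap TATAAA. A match is not a measured binding site.

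The acyl chain of the barrier ceramides is handled first by Slc27a4, Elovl4 and Cyp4f39. Slc27a4 (ENSMUSG00000059316, chromosome 2, 29802634 to 29817522 on GRCm38), which imports fatty acids and activates them to their coenzyme A esters, was at 43.4, 33.96 and 37.9 CPM in the tdT+CD49f+CD34+ libraries, 55.8, 44.8 and 38.7 in tdTnegCD49f+CD34+, 39.3, 43.5 and 32.4 in tdT+CD49f+CD34+SCA-1+ and 35.7 and 43.2 in tdTnegCD49f+CD34+SCA-1+ libraries. The groups overlapped throughout, and the populations differed by -0.12 on the log2 scale (SE 0.14, 95% interval -0.42 to 0.19, edgeR adjusted p = 0.590). Its estimates in the 3 comparisons of the populations and the comparisons of tdT+ with tdTneg cells ran from -0.27 to -0.00, and it was the member whose level correlated least with the others (r from -0.64 to -0.01 over 9 pairs).

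Elovl4 (ENSMUSG00000032262, chromosome 9, 83778692 to 83806277), which elongates very long fatty acids, was at 31.1, 63.1 and 28.1 CPM in tdT+CD49f+CD34+ libraries, 91.7, 7.004 and 8.15 in tdTnegCD49f+CD34+, 74.8, 63.4 and 163 in tdT+CD49f+CD34+SCA-1+ and 111 and 46.7 in tdTnegCD49f+CD34+SCA-1+ libraries. It had the highest level per kilobase of joined exons among the 10 genes, with a median of 20.8 CPM per kilobase. Replicate 1 of the tdTnegCD49f+CD34+ group was more than 10 times as high as the other two of its group, and the populations overlapped. The log2 fold change was 1.22 (SE 0.66, 95% interval -0.25 to 2.696, edgeR adjusted p = 0.224). Without that 1 library it was 2.34, at an edgeR adjusted p of 0.00455.

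Cyp4f39 (ENSMUSG00000061126, chromosome 17, 32452723 to 32493320), the mouse omega-hydroxylase of these chains, rose with the SCA-1+ sort. It was at 7.16, 13.2 and 4.63 CPM in tdT+CD49f+CD34+ libraries, 6.34, 1.56 and 1.44 in tdTnegCD49f+CD34+, 22.5, 10.3 and 18.2 in tdT+CD49f+CD34+SCA-1+ and 25.6 and 13.99 in tdTnegCD49f+CD34+SCA-1+ libraries. Of the 5 SCA-1+ libraries, 4 were above all CD49f+CD34+ libraries, and tdT+CD49f+CD34+SCA-1+ replicate 2 was below tdT+CD49f+CD34+ replicate 2. The difference was 3.597-fold (log2 1.85, SE 0.47, edgeR adjusted p = 0.0226). This call was lost when replicate 1 of tdT+CD49f+CD34+ (adjusted p = 0.0511), tdT+CD49f+CD34+SCA-1+ (0.0505) or tdTnegCD49f+CD34+SCA-1+ cells (0.114) was left out.

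Cers3 and Pnpla1 carry out the next steps, and they were the 2 genes of the 10 whose libraries did not overlap between the populations. Among all genes tested, 5.1% had all 5 SCA-1+ libraries above all 6 CD49f+CD34+ libraries. Cers3 (ENSMUSG00000030510, chromosome 7, 66743504 to 66823691), the ceramide synthase for ultra-long acyl chains, was at 15.7, 19.9 and 11.9 CPM in tdT+CD49f+CD34+ libraries, 11.8, 6.90 and 9.66 in tdTnegCD49f+CD34+, 38.8, 35.3 and 57.8 in tdT+CD49f+CD34+SCA-1+ and 37.8 and 20.1 in tdTnegCD49f+CD34+SCA-1+ libraries. The lowest SCA-1+ library exceeded the highest CD49f+CD34+ library by little, 20.1 against 19.9 CPM. The mean difference was 2.92-fold (log2 1.54, SE 0.24, 95% interval 1.01 to 2.08, edgeR adjusted p = 0.00202), the lowest adjusted p of the 10 genes.

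Pnpla1 (ENSMUSG00000043286, chromosome 17, 28858411 to 28890309), the transacylase that esterifies omega-hydroxyceramide with linoleate, was at 5.62, 5.20 and 4.19 CPM in tdT+CD49f+CD34+ libraries, 4.19, 3.17 and 2.07 in tdTnegCD49f+CD34+, 12.5, 8.52 and 11.3 in tdT+CD49f+CD34+SCA-1+ and 14.4 and 8.04 in tdTnegCD49f+CD34+SCA-1+ libraries. It differed 2.76-fold between the populations (log2 1.47, SE 0.27, 95% interval 0.87 to 2.06, edgeR adjusted p = 0.00464). Per kilobase it was the lowest of the 10 genes, with a median of 1.16 CPM. The antisense gene Pnpla1os shares 644 exon bases with Pnpla1, and since the library kit does not mark strand their reads cannot be told apart there. It held 0 to 6 counts per library, against 76 to 468 for Pnpla1.

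Ugcg and Abca12 glucosylate the ceramide and load it into lamellar granules. Abca12 (ENSMUSG00000050296, chromosome 1, 71242276 to 71414910) was at 48.5, 70.1 and 33.3 CPM in tdT+CD49f+CD34+ libraries, 32.4, 11.3 and 15.3 in tdTnegCD49f+CD34+, 149.5, 70.5 and 198 in tdT+CD49f+CD34+SCA-1+ and 151 and 68.5 in tdTnegCD49f+CD34+SCA-1+ libraries. The populations overlapped in 1 value only, since tdTnegCD49f+CD34+SCA-1+ replicate 2 was below tdT+CD49f+CD34+ replicate 2. Its fold of 3.91 was the highest called (log2 1.97, SE 0.37, 95% interval 1.14 to 2.80, edgeR adjusted p = 0.00574).

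Ugcg (ENSMUSG00000028381, chromosome 4, 59189257 to 59222833), the glucosylceramide synthase, was at 38.7, 55.7 and 20.9 CPM in tdT+CD49f+CD34+ libraries, 23.4, 28.7 and 21.1 in tdTnegCD49f+CD34+, 42.4, 55.1 and 53.7 in tdT+CD49f+CD34+SCA-1+ and 107 and 101 in tdTnegCD49f+CD34+SCA-1+ libraries. The pattern differed from that of Cers3 and Abca12 in that the tdTnegCD49f+CD34+SCA-1+ libraries stood above all 9 others, while tdT+ libraries of the populations overlapped. Between the populations it differed 2.37-fold (log2 1.24, SE 0.22, 95% interval 0.75 to 1.73, edgeR adjusted p = 0.00397). Abca12, Cers3, Pnpla1 and Ugcg stayed called in the mean comparison in each of the 18 alternatives run, which left out single libraries, changed the filter, the scaling or the test, or left out the 3 libraries high in Alb.

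Some markers of spinous and granular keratinocytes and of leukocytes were also called higher. The 8 spinous markers summed to 8781 to 13908 CPM in tdT+CD49f+CD34+SCA-1+ libraries and 4193 to 10796 in tdTnegCD49f+CD34+SCA-1+ libraries, against 3533 to 6812 in tdT+CD49f+CD34+ and 1457 to 3178 in tdTnegCD49f+CD34+ libraries, and 4 of them, Krt1, Krt10, Krtdap and Dsc1, were called higher. The 7 granular markers summed to 107 to 155, 106 to 480.1, 51.1 to 119 and 22.5 to 101 CPM in the same order, and 3, Casp14, Asprv1 and Tgm3, were called higher. The spinous sums and the granular sums both overlapped between the populations. The 8 leukocyte markers summed to 524 to 675 and 577 to 662 CPM in the SCA-1+ groups and 16.4 to 344 CPM in the others. No marker of the 3 lists was at 0 in all libraries of a group, and the part of these cells in the results was not tested. The 5 called genes had the same direction at both ages, where 29 weeks is replicate 1 alone. They were called on these same libraries, so this is a description and not a separate test. The log2 ratio of their mean CPM, SCA-1+ over CD49f+CD34+, was 1.27 to 1.89 at 29 weeks (2 against 2 libraries) and 1.15 to 1.79 at 32 weeks (3 against 4).

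With all 11 libraries neither lipoxygenase gene was called between the populations. Alox12b and Aloxe3 encode the enzymes that act in sequence on the linoleate of acylceramide, and Sdr9c7 the dehydrogenase that acts on their product. Aloxe3 (ENSMUSG00000020892, chromosome 11, 69125896 to 69149115) and Alox12b (ENSMUSG00000032807, chromosome 11, 69156989 to 69169792) lie 7.87 kilobases apart on the plus strand. Aloxe3 was at 9.56, 19.9 and 12.8 CPM in tdT+CD49f+CD34+ libraries, 12.4, 9.52 and 9.81 in tdTnegCD49f+CD34+, 11.7, 8.97 and 24.7 in tdT+CD49f+CD34+SCA-1+ and 15.9 and 13.7 in tdTnegCD49f+CD34+SCA-1+ libraries. The groups overlapped, and the log2 fold change was 0.29 (SE 0.29, 95% interval -0.36 to 0.95, edgeR adjusted p = 0.528).

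Alox12b was at 3.40, 6.05 and 0 CPM in tdT+CD49f+CD34+ libraries, 2.33, 4.12 and 0.415 in tdTnegCD49f+CD34+, 5.97, 7.33 and 5.83 in tdT+CD49f+CD34+SCA-1+ and 18.0 and 7.498 in tdTnegCD49f+CD34+SCA-1+ libraries. The 0 in tdT+CD49f+CD34+ replicate 3 allows a level of up to 0.165 CPM, the value of 3 counts there. Of the 6 CD49f+CD34+ libraries 5 lay below every SCA-1+ library. The log2 fold change was 1.75 with a wide error (SE 0.89, 95% interval -0.24 to 3.73, edgeR adjusted p = 0.198), so that neighbouring lipoxygenase genes had different estimates whose intervals overlapped.

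Sdr9c7 (ENSMUSG00000040127, chromosome 10, 127898518 to 127911761) varied widely within the CD49f+CD34+ groups. It was at 23.6, 9.85 and 0 CPM in tdT+CD49f+CD34+ libraries, 1.28, 13.4 and 0.293 in tdTnegCD49f+CD34+, 3.20, 2.21 and 4.80 in tdT+CD49f+CD34+SCA-1+ and 6.99 and 5.78 in tdTnegCD49f+CD34+SCA-1+ libraries. Its 3 highest values were in the 3 libraries high in Alb, where it stood at 2.46, 2.24 and 2.202 CPM per 1000 CPM of Alb. In the other 3 CD49f+CD34+ libraries it was at most 1.28 CPM, below all 5 SCA-1+ libraries. The estimate on the log2 scale was -0.68 with all 11 libraries (SE 1.16, 95% interval -3.25 to 1.90, edgeR adjusted p = 0.726). Without the 3 libraries it was positive and called, at an edgeR adjusted p of 0.00210, and so was that of Alox12b at 0.00166, which made 7 of the 10 genes called higher. Of all genes, 8.74% were called higher without the 3 libraries, against 4.77% with them. This choice was made after the data were seen, leaves 1 tdT+CD49f+CD34+ library, in which both genes had 0 counts, and gives fitted folds that are no bound. The 8 hepatocyte genes summed to 7546 to 15907 CPM in the 3 libraries and to at most 61.2 CPM elsewhere, and their part in the level of Sdr9c7 was not tested beyond these values.

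**Figure D2:**
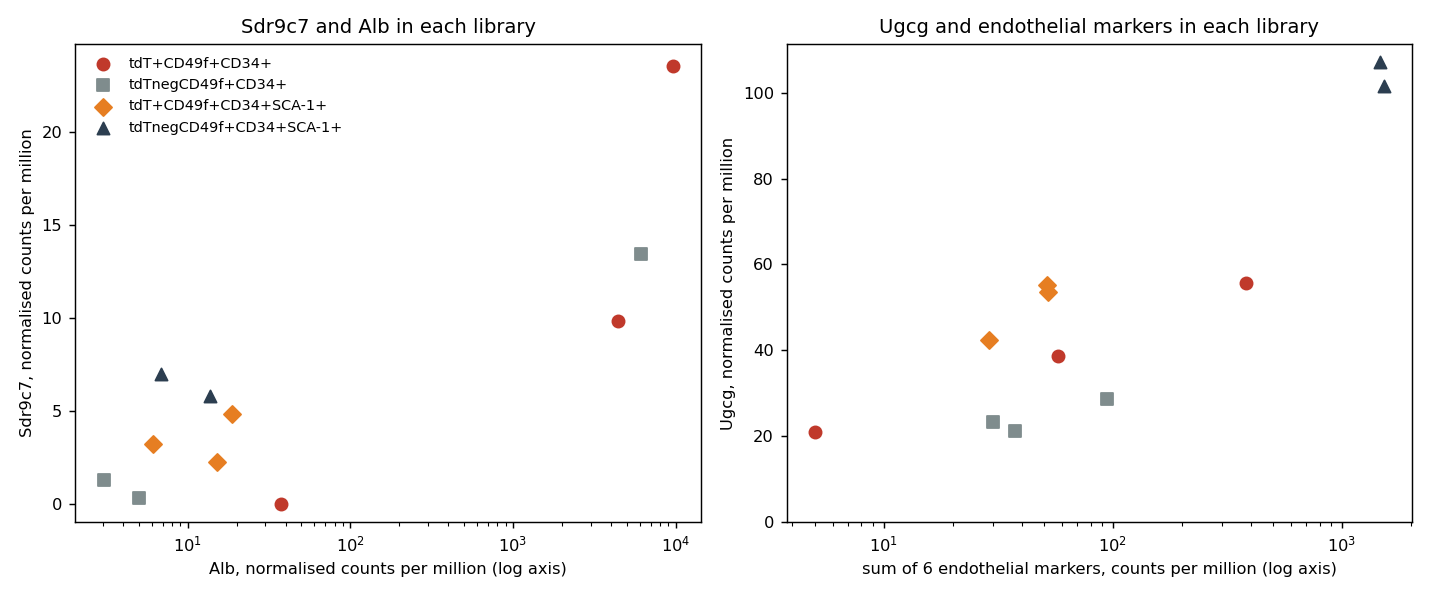
Each point is 1 library, with symbols for the 4 groups. Left, Sdr9c7 (CPM, vertical axis) against Alb (CPM, log axis): the 3 libraries at 4393 CPM of Alb or more hold the 3 highest Sdr9c7 values, 9.85 to 23.6. Right, Ugcg (CPM) against the sum of 6 endothelial markers (CPM, log axis): the 2 tdTnegCD49f+CD34+SCA-1+ libraries are highest in both.

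Within the libraries labelled tdT+, Cers3 alone of the 10 genes was called, 2.78-fold higher (log2 1.47, SE 0.33, edgeR adjusted p = 0.0169), where 2.91% of all genes were called higher and 5.54% lower. Abca12 (log2 1.46, adjusted p = 0.0848), Pnpla1 (1.103, 0.0726), Elovl4 (1.30, 0.361), Cyp4f39 (1.03, 0.298) and Alox12b (1.01, 0.610) had estimates over 1 that missed the threshold. Ugcg was at log2 0.39 (SE 0.29, adjusted p = 0.401). The libraries did not overlap for 4 genes, Abca12, Cers3, Elovl4 and Pnpla1, all higher, as for 15.4% of all genes. Beside this, 7 of 8 bulge markers were lower, 3 of 8 leukocyte markers (median log2 1.94) and 1 of 7 granular markers (median -0.97) were higher, and 0 of 8 spinous markers were called, with 3 at an unadjusted p under 0.05. Without tdT+CD49f+CD34+ replicate 2, the library that stood with the tdTneg libraries in the row outside the Ensembl genes, Cers3 was again the 1 gene called (log2 1.67, adjusted p = 0.0239). The call of Cers3 was lost without tdT+CD49f+CD34+ replicate 1 (adjusted p = 0.0555) or tdT+CD49f+CD34+SCA-1+ replicate 3 (0.0611). Without the 3 libraries high in Alb, 4 genes were called, Alox12b, Cers3, Sdr9c7 and Ugcg, against 1 remaining CD49f+CD34+ library that is assumed to vary like the others, and 4.99% of all genes were called higher.

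Within tdTneg cells 4 of the 10 genes were called higher, Ugcg (4.27-fold, log2 2.09, SE 0.33, edgeR adjusted p = 0.00967), Pnpla1 (3.56-fold, 1.83, SE 0.39, 0.0274), Cers3 (3.06-fold, 1.62, SE 0.35, 0.0286) and Abca12 (5.58-fold, 2.48, SE 0.55, 0.0311). Of all genes, 3.29% were called higher and 1.45% lower. Cyp4f39 had the highest estimate (6.34-fold, log2 2.67, SE 0.70) and an adjusted p of 0.0540. It was called under 8 of 19 alternatives, DESeq2, RLE size factors, both other filters and voom among them, and not with the replicate block, with only the groups compared or without any 1 of 9 libraries. Its adjusted p over the 19 ran from 0.000716 to 0.370, and DESeq2 called 7.77% of all genes higher. The libraries did not overlap for 7 genes, with all values higher for Alox12b, Aloxe3, Abca12, Cers3, Cyp4f39, Pnpla1 and Ugcg, as for 19.9% of all genes. Of the cell type markers, all 6 endothelial markers (median log2 4.51) and all 4 inner root sheath markers (3.50) had positive estimates, with 1 of each list called, and 6 of 8 leukocyte, 3 of 8 spinous and 2 of 7 granular markers were called higher. Their part in the results was not tested. With only the groups compared Pnpla1 was not called (0.0525). The calls of the 10 genes also changed with single libraries. Only Ugcg was called without tdTnegCD49f+CD34+ replicate 2 or replicate 3, and none without tdTnegCD49f+CD34+SCA-1+ replicate 1, where the adjusted p of Ugcg was 0.0789 and those of the other 3 were 0.306 to 0.343. Without tdTnegCD49f+CD34+ replicate 1 the called genes were 5, Elovl4 and Cyp4f39 among them and Cers3 not (0.0505). Without tdT+CD49f+CD34+SCA-1+ replicate 1 Abca12 was not called (0.0511), and without the 3 libraries high in Alb 7 genes were, as were 6.57% of all genes in that direction.

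**Figure D3:**
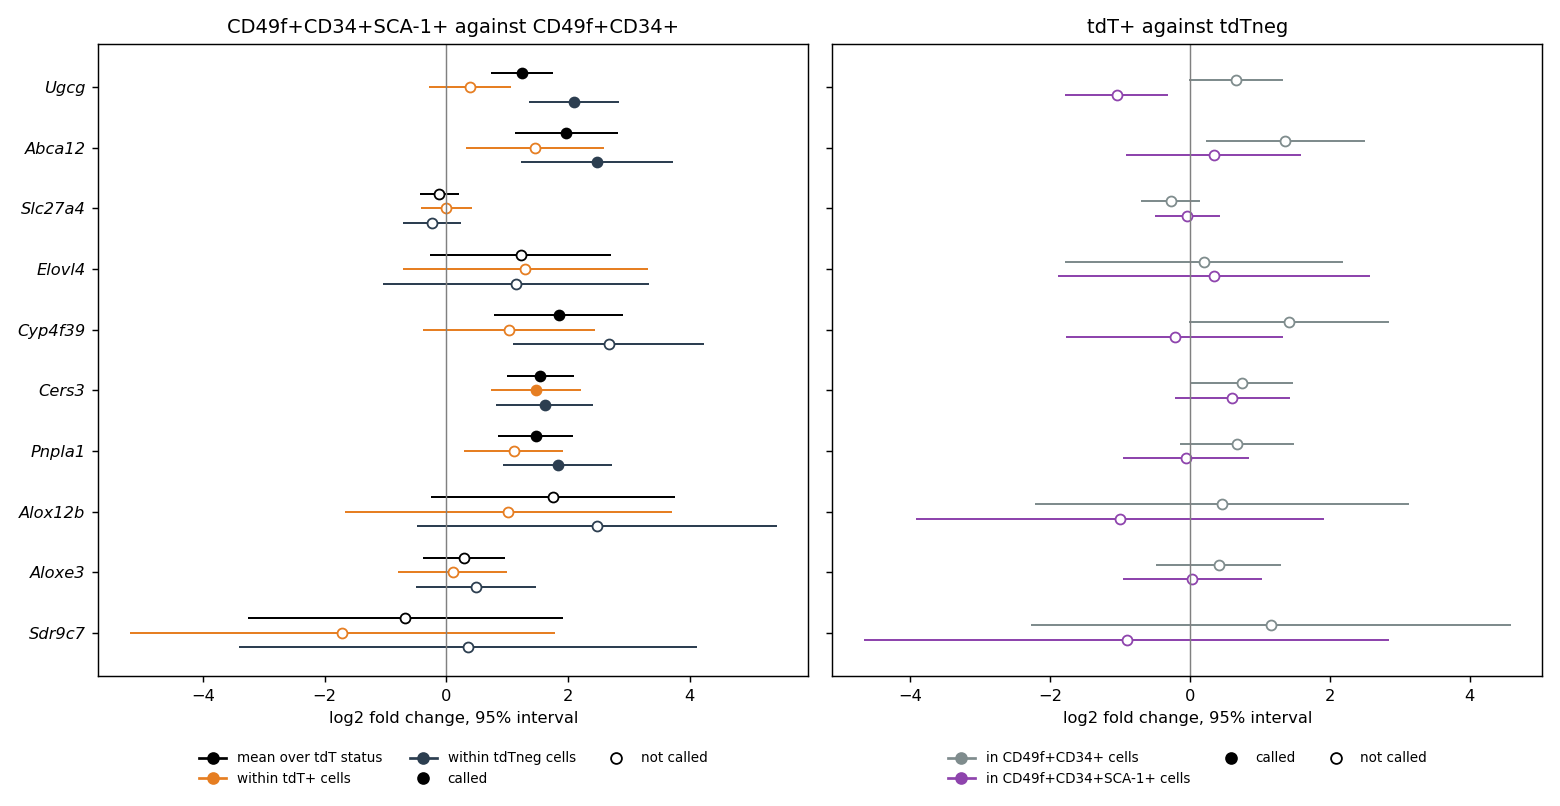
Fitted log2 fold changes (points) with 95% intervals (lines) of the 10 genes, left between the SCA-1+ and CD49f+CD34+ populations, averaged over tdT+ and tdTneg and within each, right for tdT+ against tdTneg cells within each population; filled points are called. On the left 5, 1 and 4 genes are called, all higher, and on the right none.

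Between tdT+ and tdTneg cells none of the 10 genes was called by edgeR in either population. In CD49f+CD34+ cells 0.00985% of all genes were called, and 3 of the 10 genes had an unadjusted p under 0.05, beside 8.42% of all genes. They were Abca12, 2.57-fold higher in tdT+ cells (log2 1.36, SE 0.50, 95% interval 0.24 to 2.48, adjusted p = 0.505), Cers3 (1.68-fold, log2 0.74, SE 0.32, adjusted p = 0.585) and Cyp4f39 (2.67-fold, log2 1.42, SE 0.63, adjusted p = 0.592). The values of Abca12, 33.3 to 70.1 against 11.3 to 32.4 CPM, and of Cers3, 11.9 to 19.9 against 6.90 to 11.8 CPM, did not overlap, as for 5.07% of all genes with tdT+ higher. DESeq2 called none of the 10 either. Leaving out the library with 2.05 CPM of the row outside the Ensembl genes, labelled replicate 2 of tdT+CD49f+CD34+, gave log2 estimates of 1.06, 0.55 and 0.92. Without the 3 libraries high in Alb, which are 3 of the 6 compared here, the log2 estimates were 0.48 for Abca12, 0.15 for Cers3 and 0.25 for Cyp4f39, and none of the 10 genes was called. All 8 spinous and all 8 leukocyte markers had positive estimates in the same comparison (medians 1.66 and 2.35), with 0 of them called, and their part was not tested.

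In CD49f+CD34+SCA-1+ cells 0.251% of all genes were called higher in tdT+ and 2.06% lower. Ugcg was the 1 gene of the 10 with an unadjusted p under 0.05, beside 14.6% of all genes, at log2 -1.05 (SE 0.32, 95% interval -1.77 to -0.33, edgeR adjusted p = 0.149), and DESeq2 called it (adjusted p = 0.0329), as it did 5.34% of all genes in that direction. The adjusted p over all alternatives ran from 0.00389 to 0.555. Ugcg, Alox12b and Sdr9c7 had all tdT+ libraries below both tdTneg libraries, as for 17.2% of all genes. For Cers3 the log2 estimate was 0.60 (95% interval -0.20 to 1.41), for Abca12 0.34 (-0.89 to 1.58), for Pnpla1 -0.06 (-0.94 to 0.82) and for Cyp4f39 -0.22 (-1.75 to 1.31). With 3 against 2 libraries these intervals include differences in both directions.

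The test of whether the effect of tdT differed between the populations called none of the 10 genes by edgeR, and 0.389% of all genes. An unadjusted p under 0.05 was found for Ugcg alone, beside 12.4% of all genes, with a difference of -1.70 on the log2 scale (SE 0.44, edgeR adjusted p = 0.147), and DESeq2 called it (adjusted p = 0.00577), as it did 4.38% of all genes. Over the alternatives its adjusted p ran from 0.00577 to 0.431. Endothelial and inner root sheath markers were highest in the same 2 libraries as Ugcg. The 6 endothelial markers summed to 1467 to 1529 CPM in tdTnegCD49f+CD34+SCA-1+ libraries, 28.9 to 52.3 in tdT+CD49f+CD34+SCA-1+, 5.01 to 380.5 in tdT+CD49f+CD34+ and 29.9 to 94.0 in tdTnegCD49f+CD34+ libraries, and the 4 inner root sheath markers to 567 to 571, 18.2 to 249.7, 22.2 to 67.8 and 30.1 to 59.1 CPM. No marker of either list was at 0 in all libraries of a group. Acer2, an alkaline ceramidase, followed the same order, at 80.7 and 71.2 CPM in tdTnegCD49f+CD34+SCA-1+ libraries and 12.95 to 44.7 CPM in the 9 others. The part of these cells in the level of Ugcg was not tested.

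The other genes of the pathway were taken as 4 lists. Of their 61 genes, 10 were called higher in SCA-1+ cells, 6 lower and 45 not, where 4.77% of all genes were called higher and 6.79% lower, and their median log2 fold change was 0.03. Fewer were called when some single libraries were left out, with the range given below. In sphingoid base and ceramide synthesis 1 of 16 rose, Cers6 (log2 1.07), and 2 fell, Cers4 (log2 -1.13, SE 0.14, edgeR adjusted p = 0.000789) and Cers1 (-4.06), which was at most 2.42 CPM. Cers1, Cers4 and Cers6 are ceramide synthases for shorter chains than those used by Cers3, so that members of this family changed in opposite directions. In fatty acid elongation, hydroxylation and activation 1 of 16 rose, the elongase Elovl7 (log2 1.69), and 1 fell, Elovl2 (-8.22), which was at 38.6 to 78.0 CPM in the 3 libraries high in Alb and at most 0.276 CPM in the other 8.

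In sphingolipid turnover 4 of 16 rose, the alkaline ceramidases Acer1 (log2 1.83, SE 0.41, edgeR adjusted p = 0.0123) and Acer2 (1.52), the ceramide kinase Cerk (1.41) and the sphingomyelin synthase Sgms1 (1.22), and 1 fell, the other sphingomyelin synthase Sgms2 (-1.18). Among the other cornified lipid envelope and ichthyosis genes 4 of 13 rose. These were Sult2b1, the cholesterol sulfotransferase, with the highest fold of the pathway genes called (3.71-fold, log2 1.89, SE 0.25, edgeR adjusted p = 0.000893), Ephx3, an epoxide hydrolase (log2 1.76), Nipal4, a membrane protein mutated in ichthyosis (1.55), and Abhd5, the cofactor of Pnpla1 (1.16). Sult2b1 was at 9.93, 8.998 and 8.49 CPM in tdT+CD49f+CD34+ libraries, 5.62, 2.96 and 2.49 in tdTnegCD49f+CD34+, 18.6, 25.8 and 27.8 in tdT+CD49f+CD34+SCA-1+ and 23.1 and 15.5 in tdTnegCD49f+CD34+SCA-1+ libraries, without overlap between the populations. Plpp1, a phospholipid phosphatase, and Hsd17b6, a hydroxysteroid dehydrogenase, fell (log2 -2.54 and -7.91), and Hsd17b6 was at 7.34 to 28.1 CPM in the libraries high in Alb and at most 0.165 CPM elsewhere. Without the 3 libraries the pathway counts were 13 higher and 4 lower, and 8.74% of all genes were called higher and 4.88% lower.

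**Figure D4:**
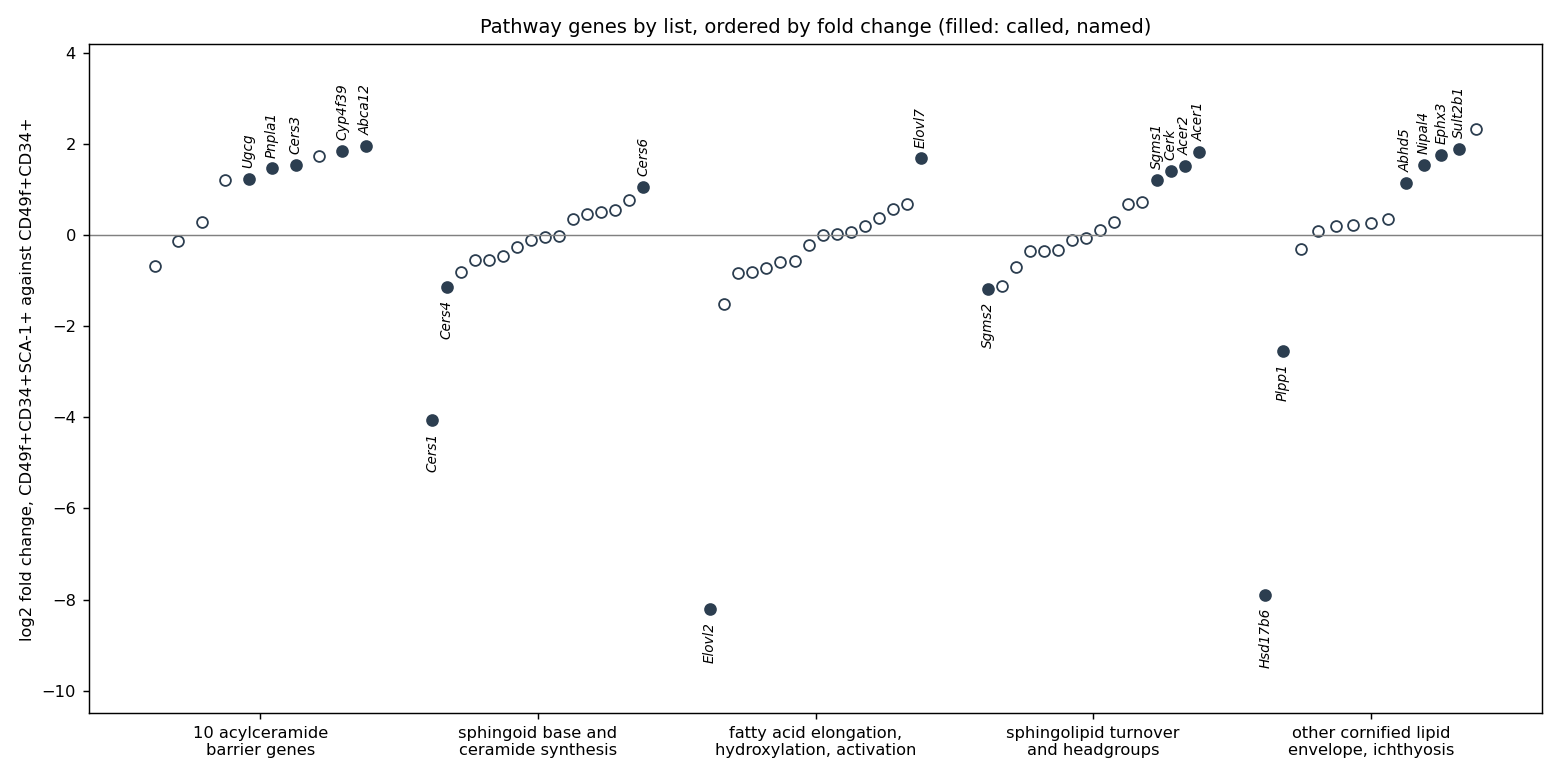
Fitted log2 fold changes (vertical axis) between the SCA-1+ and CD49f+CD34+ populations, averaged over tdT+ and tdTneg, of the 10 genes and of 61 other pathway genes in 4 lists, ordered within each list; filled and named points are called. In the 10 genes 5 are called and all are higher, and in the 4 lists 10 are higher and 6 lower, with Elovl2 (-8.22) and Hsd17b6 (-7.91) lowest.

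Within tdT+ cells the pathway lists held 6 genes of 61 called higher and 4 lower, beside 2.91% and 5.54% of all genes, led by Elovl7 (log2 1.47), Nipal4 (1.42) and Cerk (1.42) and by Plpp1 (-3.97), Sgms2 (-1.68) and Cers4 (-1.26). Within tdTneg cells 9 were higher and 3 lower, beside 3.29% and 1.45% of all genes, led by Ephx3 (2.77), Acer1 (2.45) and Sult2b1 (2.38) and by Plpp1 (-1.12), Ormdl3 (-1.08) and Cers4 (-1.01). The number called within tdTneg cells fell when some single libraries were left out, with the range given below. Between tdT+ and tdTneg cells no pathway gene was called in CD49f+CD34+ cells by edgeR, with 16 of 61 at an unadjusted p under 0.05, beside 8.42% of all genes, and 4 called by DESeq2, beside 1.83% of all genes. In CD49f+CD34+SCA-1+ cells 2 were lower in tdT+ cells, beside 2.06% of all genes, Plpp1 (log2 -2.67, edgeR adjusted p = 0.000875) and Cers4 (-1.33, 0.00993). In the same comparison 3 of 8 bulge markers were called lower, with 7 negative estimates and 1 positive (median log2 -1.88). Of the leukocyte markers 3 of 8 were called higher, with 4 positive and 4 negative estimates, and the part of these cells was not tested.

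Of 22 family relatives of the 10 genes, 21 were tested, of which 1 rose and 3 fell in SCA-1+ cells, beside 4.77% and 6.79% of all genes. Pnpla3, a triglyceride lipase relative of Pnpla1, rose (log2 1.54), and Alox8, a lipoxygenase, fell (-1.53, edgeR adjusted p = 0.00656). The other two that fell, Cyp4f14 (-7.63) and Slc27a5 (-6.17), are relatives of Cyp4f39 and Slc27a4, and were highest in the 3 libraries high in Alb, at 16.4 to 62.7 and 84.8 to 218 CPM, against at most 0.276 and 2.48 CPM elsewhere. Cyp4f39 and Slc27a4 themselves were not highest in those libraries.

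Per kilobase of joined exons, the median levels over the 11 libraries fell in the order Elovl4 (20.8 CPM per kilobase), Slc27a4 (8.91), Ugcg (8.14), Cers3 (6.10), Abca12 (4.62), Cyp4f39 (3.599), Alox12b (2.40), Aloxe3 (1.94), Sdr9c7 (1.58) and Pnpla1 (1.16). With the length of the longest transcript 3 pairs of neighbours changed places, Slc27a4 with Ugcg, Cers3 with Abca12 and Alox12b with Aloxe3, so that their order is not set by these data. The genes outside the 10 whose log2 CPM correlated best over the 11 libraries with the mean of the 10 standardised levels were Gm43621 (r = 0.96), Bmp4 (0.95), Gm43197 (0.94), Slc6a14 (0.94) and Nectin4 (0.93), given as a description over libraries that share the contrast between the populations.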

How the data were processed

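Bulk RNA-seq of sorted epidermal cells was analysed in 11 libraries from 4 groups. The authors deposited raw counts per Ensembl gene, 1 file per library. The submitters' processing notes name mm10, bcl2fastq 2.20.0.422, FastQC, STAR, featureCounts and DESeq2 1.18.1. The strand setting is not given in the sources used here, and the library kit does not mark strand. All 55536 identifiers matched Ensembl 96 (GENCODE M21), and no column was left unmapped. The 1 row outside the Ensembl genes, 0.000205% to 0.0307% of the total, was left out of library sizes and tests.

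The deposited counts were scaled by TMM, filtered by filterByExpr (20307 genes kept) and fitted over all 4 groups with edgeR 4.0.16 in R 4.3.3, using the quasi-likelihood test with Benjamini-Hochberg adjustment over all genes tested. Calls needed an adjusted p under 0.05 and a log2 fold change over 1 in size. DESeq2 1.42.0 and limma 3.58.1 (voom with library weights) were alternatives, with RLE size factors, other filters, a replicate block, only the groups compared and each library left out. Leaving out the 3 libraries high in Alb, and the hepatocyte list, were chosen after the data were seen. Tables and plots were made with Python 3.11.15, pandas 2.3.3, numpy 2.4.6 and matplotlib 3.10.9. The scripts were tested on simulated data in which 200 genes were changed.

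The 10 genes and all lists were chosen with earlier results of these data known. All 10 genes are named, with up to 3 pathway genes of highest and lowest fold per comparison among those called. Other genes, named where 5 or fewer of a list were called, were chosen after their values were seen. Likeness was Pearson's r of log2 CPM (prior count 2) with the mean of the 10 standardised levels. The 4 motifs spelled out in the text were searched on both strands of RefSeq promoter entries. Libraries are pools of 2 mice, and p-values measure the spread between these pools. The study reports 3 biological replicates of 2 male mice each, and the labels do not say whether 1 pool gave all 4 sorts. If it did, sorts of the same replicate number share mice, which the reported fit does not take into account. Totals of 17409131 to 46542177 counts set the precision, and the limit given for a count of 0 covers counting error only.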

Additional observations from a re-analysis of the deposited data

Results flagged for a closer look

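Plpp1, a phospholipid phosphatase, was the 1 pathway gene of 61 that edgeR called for a tdT effect differing by population, at -2.85 on the log2 scale (edgeR adjusted p = 0.00988). An unadjusted p under 0.05 was found for 14 of the 61, beside 12.4% of all genes. In the same test 1 of 8 bulge markers was called, as negative, with 7 negative estimates and 1 positive (median -1.42), and their part was not tested. Plpp1 was at 39.7 to 67.5 CPM in tdT+CD49f+CD34+, 39.6 to 59.1 in tdTnegCD49f+CD34+, 3.01 to 3.97 in tdT+CD49f+CD34+SCA-1+ and 21.9 to 22.2 CPM in tdTnegCD49f+CD34+SCA-1+ libraries, so that the tdT+ and tdTneg libraries overlapped in the first population and not in the second.

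The 1 row outside the Ensembl genes entered no comparison. It stood at 133 to 307 CPM in 5 of the 6 tdT+ libraries and at 2.05 to 4.89 CPM in the other tdT+ library and the 5 tdTneg libraries. What the row measures is not given in the sources used here.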

How the results depend on the processing

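In the mean comparison of the populations, DESeq2 called 6.3% of all genes higher and 10.5% lower, beside 4.77% and 6.79% in the reported fit. Of the 10 genes, 5 were called with DESeq2, RLE size factors, both other filters, voom with library weights and the replicate block, as in the reported fit. Without the 3 libraries high in Alb, an alternative chosen after the data were seen, 7 were. Over all 10 genes, comparisons and alternatives, 1000 values kept their direction and their side of the threshold, 61 changed sign, 29 gained a call in the same direction and 18 lost one. Of the 61, 2 were also called after the change, both of Sdr9c7 without the 3 libraries. Of the counts of called genes, 198 stayed within 1.5 times and 38 did not. The cause was not tested except where fewer libraries or genes entered by construction. Without the 3 libraries the log2 estimates that changed sign were those of Sdr9c7 between the populations (6.35) and within tdT+ cells (9.64), of Alox12b (-8.36), Elovl4 (-0.83), Sdr9c7 (-7.56) and Ugcg (-0.0920) for tdT in CD49f+CD34+ cells, of Aloxe3 (-0.0315) for tdT in SCA-1+ cells, and of Alox12b (7.28), Cers3 (0.38) and Sdr9c7 (6.58) for the difference in the tdT effect. With voom they were those of Sdr9c7 between the populations (0.82), Aloxe3 (-0.11) and Slc27a4 (0.0220) within tdT+ cells, Aloxe3 (-0.10) and Pnpla1 (0.0471) for tdT in SCA-1+ cells and Elovl4 (-0.12) for the difference in the tdT effect. For tdT in SCA-1+ cells Aloxe3 was at -0.0337 when genes with 1 count anywhere were kept, -0.0141 when 10 counts were required in every library and -0.00570 with only the groups compared, and Elovl4 was at -0.00485 for the difference in the tdT effect with the filter of 10. That filter removed Alox12b and Sdr9c7, and using only the groups compared gave no value for the mean comparison or the difference in the tdT effect.

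With the replicate block the counts of the 10 genes called were 5, 1, 4, 0, 0 and 0, as without it, and 7 pathway genes were called within tdTneg cells. Under the block Alox12b (0.0537), Aloxe3 (-0.14), Cyp4f39 (0.0851), Pnpla1 (0.10), Sdr9c7 (0.81) and Slc27a4 (0.0355) changed sign for tdT in SCA-1+ cells, as did Sdr9c7 (0.13) between the populations and Elovl4 (-0.12) for the difference in the tdT effect. The numbers were not taken as pairs in the reported fit. The deviations from the group means of 15 same-numbered pairs of libraries had a median correlation of 0.08 (-0.42 to 0.59), and those of 30 other pairs -0.02 (-0.60 to 0.51). Deviations within a group sum to 0, so that in the group of 2 libraries they mirror each other. These correlations therefore cannot show whether equal numbers mark pairs.

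Of the 10 genes, those called within tdT+ cells numbered 3 with DESeq2 (which called 4.42% of all genes higher and 11.5% lower), 2 with the filter of 1 count and 4 without the 3 libraries. Within tdTneg cells they numbered 7 without the 3 libraries. For tdT in SCA-1+ cells there was 1, Ugcg, with DESeq2, the filter of 1 count, voom, only the groups compared and without the 3 libraries, and for the difference in the tdT effect there was 1 with DESeq2, the filter of 1 count and voom. Of the pathway genes, 16 were called within tdT+ cells with DESeq2, beside the shares of all genes just given. For tdT in CD49f+CD34+ cells 4 were called with DESeq2 and 1 each with the filter of 1 count and voom. For tdT in SCA-1+ cells 5 were called with DESeq2 (6.48% of all genes), the filter of 1 count and without the 3 libraries, and 4 with voom and only the groups compared. For the difference in the tdT effect 7 were called with DESeq2 (4.38% of all genes), 3 with the filter of 10 counts and 5 with voom.

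Leaving out 1 library at a time gave 4 to 6 of the 10 genes called between the populations, 0 to 1 within tdT+ cells, 0 to 5 within tdTneg cells, 0 for tdT in CD49f+CD34+ cells, and 0 to 1 for tdT in SCA-1+ cells and for the difference in the tdT effect. The pathway genes called were 8 to 16, 7 to 12, 0 to 12, 0, 1 to 3 and 0 to 1 in the same order. Estimates that changed sign ranged, for tdT in CD49f+CD34+ cells, over -0.42 to 1.20 (Alox12b), -0.29 to 2.43 (Elovl4) and -0.0206 to 3.82 (Sdr9c7). For tdT in SCA-1+ cells they ranged over -0.51 to 0.24 (Aloxe3), -0.16 to 1.02 (Abca12), -0.19 to 1.09 (Elovl4), -0.63 to 0.28 (Cyp4f39), -0.46 to 0.41 (Pnpla1) and -0.19 to 0.0704 (Slc27a4). Within tdT+ cells they ranged over -0.45 to 0.43 (Aloxe3) and -0.12 to 0.11 (Slc27a4), and for the difference in the tdT effect over -0.56 to 0.39 (Cers3) and -2.08 to 0.92 (Elovl4). Sdr9c7 ranged over -0.97 to 0.65 between the populations and -0.20 to 3.01 within tdTneg cells. Where a left-out library reduced tdTnegCD49f+CD34+SCA-1+ to 1 sample, that sample was assumed to vary like the other groups. With groups of 2 and 3 and a common biological coefficient of variation of 0.61, the groups limit what could be detected.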
